A study of Mus musculus with 64 samples.

Results

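The genes described here are 8 of the 16913 in the gene table of 64 mouse hearts: Pdk4, Ucp3, Ppara, Angptl4, Acot1, Acot2, Cpt1a and Plin5. They were chosen by name, as PPAR-alpha itself and targets of it that move the heart between glucose and fatty acids, and all 8 were found in the table. PPAR-alpha is a nuclear receptor that is switched on by fatty acids, pairs with a retinoid X receptor on DNA and raises genes for the uptake, storage and oxidation of fat. In the heart, which lives mostly on fatty acids, these genes are known to rise with fasting and with other states in which fat reaches the muscle. Pdk4 then holds back pyruvate oxidation. Cpt1a and the thioesterases handle acyl-CoA, at the mitochondrion (Cpt1a), inside it (Acot2) and in the cytosol (Acot1). Plin5 coats lipid droplets, Ucp3 sits in the mitochondrial inner membrane, and Angptl4 is a secreted inhibitor of lipoprotein lipase.

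Mice of strain C57BL/6J either carried a transgene for cardiac troponin T with the change cTnT-delta160E (TG), a model of hypertrophic cardiomyopathy, or did not (nTG). They were either left sedentary or ran high-intensity interval training on a treadmill for 6 weeks, on 3 days a week, in sessions of 31 minutes with 4 intervals at 85% and 4 at 50% of the average speed of their group. The sedentary mice were 7 nTG and 9 TG males and 8 nTG and 8 TG females. The trained mice were 8 nTG and 8 TG males and 10 nTG and 6 TG females, where the series' text gives 7 to 9 mice a group. The labels used here give neither the promoter that drives the transgene, nor the age of the mice, nor the chamber of the heart that was taken.

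The columns of the gene table do not follow their names. Each column of the separate lncRNA table was therefore given the gene column it correlated with best, over 389 autosomal transcripts found in both tables, and its label was used. All 64 pairs were best in both directions, with r from 0.599 to 0.863 against at most 0.404 for the next column. Taken by name, 45 of 64 gene columns contradicted the labelled sex or genotype, and after the match 0 did. Whether a mouse was trained could not be checked in this way and rests on the labels of the lncRNA columns. Tnnt2, the gene of cardiac troponin T, then lay between 2665 and 3428 CPM (counts scaled to a common library total) in nTG libraries and between 6903 and 12001 CPM in TG libraries. Every value below rests on this match, and the totals per library were 34.6 M to 67.1 M counts.

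The genes that are followed most closely below are shown here by the 250 bases before their RefSeq start site (build GRCm38.p6, 5′ to 3′ on the strand of the gene). Pdk4, Ucp3 and Cpt1a are shown because they varied together from mouse to mouse, and Plin5 because it fell in TG hearts. Capitals mark the nuclear receptor core hexamer AGGTCA or, on the other strand, TGACCT. The Pdk4 stretch is chr6:5496279-5496528 (minus strand), the Ucp3 stretch chr7:100472741-100472990 (plus strand), the Cpt1a stretch chr19:3323051-3323300 (plus strand) and the Plin5 stretch chr17:56117549-56117798 (minus strand).
Pdk4: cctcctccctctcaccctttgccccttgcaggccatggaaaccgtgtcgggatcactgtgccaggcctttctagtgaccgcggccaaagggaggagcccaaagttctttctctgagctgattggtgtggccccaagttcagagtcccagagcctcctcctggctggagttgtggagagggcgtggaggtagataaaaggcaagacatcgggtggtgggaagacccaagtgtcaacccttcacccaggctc
Ucp3: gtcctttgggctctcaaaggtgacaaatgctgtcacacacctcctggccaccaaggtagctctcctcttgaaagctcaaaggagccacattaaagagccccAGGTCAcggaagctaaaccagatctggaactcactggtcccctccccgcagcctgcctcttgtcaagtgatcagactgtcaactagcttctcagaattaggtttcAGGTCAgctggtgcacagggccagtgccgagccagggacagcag
Cpt1a: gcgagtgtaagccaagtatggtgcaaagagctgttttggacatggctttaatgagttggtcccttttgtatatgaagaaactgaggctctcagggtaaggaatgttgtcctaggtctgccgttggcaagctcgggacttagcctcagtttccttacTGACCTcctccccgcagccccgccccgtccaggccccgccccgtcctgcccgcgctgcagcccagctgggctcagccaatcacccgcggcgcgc
Plin5: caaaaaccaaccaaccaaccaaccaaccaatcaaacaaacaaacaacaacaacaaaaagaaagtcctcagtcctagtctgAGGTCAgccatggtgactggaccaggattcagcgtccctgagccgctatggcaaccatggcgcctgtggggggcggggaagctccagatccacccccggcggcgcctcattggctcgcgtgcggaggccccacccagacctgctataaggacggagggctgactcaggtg

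Ucp3 holds the hexamer at −149 and −44 relative to its start, Cpt1a holds it on the other strand at −94, and Plin5 holds it at −170. Promoter windows of 300 bases, with 50 bases after the start, were given for 7 of the 8 genes, Angptl4 being the other, and Plin5 has windows at 2 start sites. The hexamer was found in 4 of these 8 windows, the second Plin5 window included, and in 16.3% of all 32851 windows of that length. The other motifs searched, on both strands, were the direct repeat AGGTCANAGGTCA (0.0396% of all windows), the same repeat with N for the T of each hexamer (0.381%), the ERR motif TCAAGGTCA (0.423%), which contains the hexamer, the FOXO core GTAAACA (3.65%) and the E-box CACGTG (7.15%). The 8 windows held 0 matches to these 5, which says only that those letters are not in these stretches.

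Per kilobase of exon, Pdk4, Acot2 and Plin5 were the most abundant of the 8, at 63.2 ± 29.5, 62.2 ± 7.97 and 52.5 ± 7.05 CPM per kilobase (mean and SD over 64 libraries). The length is that of all annotated exons of a gene together, which for Acot1 is 3919 bases against 2272 in its longest mRNA, so levels of genes with several transcripts may be understated. Ppara followed at 14.2 ± 1.86, Ucp3 at 12 ± 5.67, Cpt1a at 8.76 ± 0.973 and Acot1 at 4.09 ± 0.972. Angptl4 was lowest at 1.63 ± 1.00, with 63 to 643 counts per library. Between neighbours in this order, Pdk4 and Acot2 differed by less than the SD of either, and Ucp3 differed from Ppara and from Cpt1a by less than its own SD but more than theirs. The other neighbours, Acot2 and Plin5 among them, differed by more than the SD of either. The genes also differed in how steady they were. Among mice of the same group the log2 level of Angptl4 had an SD of 0.802, that of Pdk4 0.528 and that of Ucp3 0.520, which put them at percentiles 99.4, 98.1 and 98.0 of 13397 genes, whose median SD was 0.144. Acot1 had 0.338 (percentile 91.3), while Acot2 (0.181), Ppara (0.163), Cpt1a (0.155) and Plin5 (0.142) were near the median gene. Across 64 libraries the highest Angptl4 level was 14.4 times the lowest, and the highest Cpt1a level 1.64 times the lowest.

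**Figure D1:**
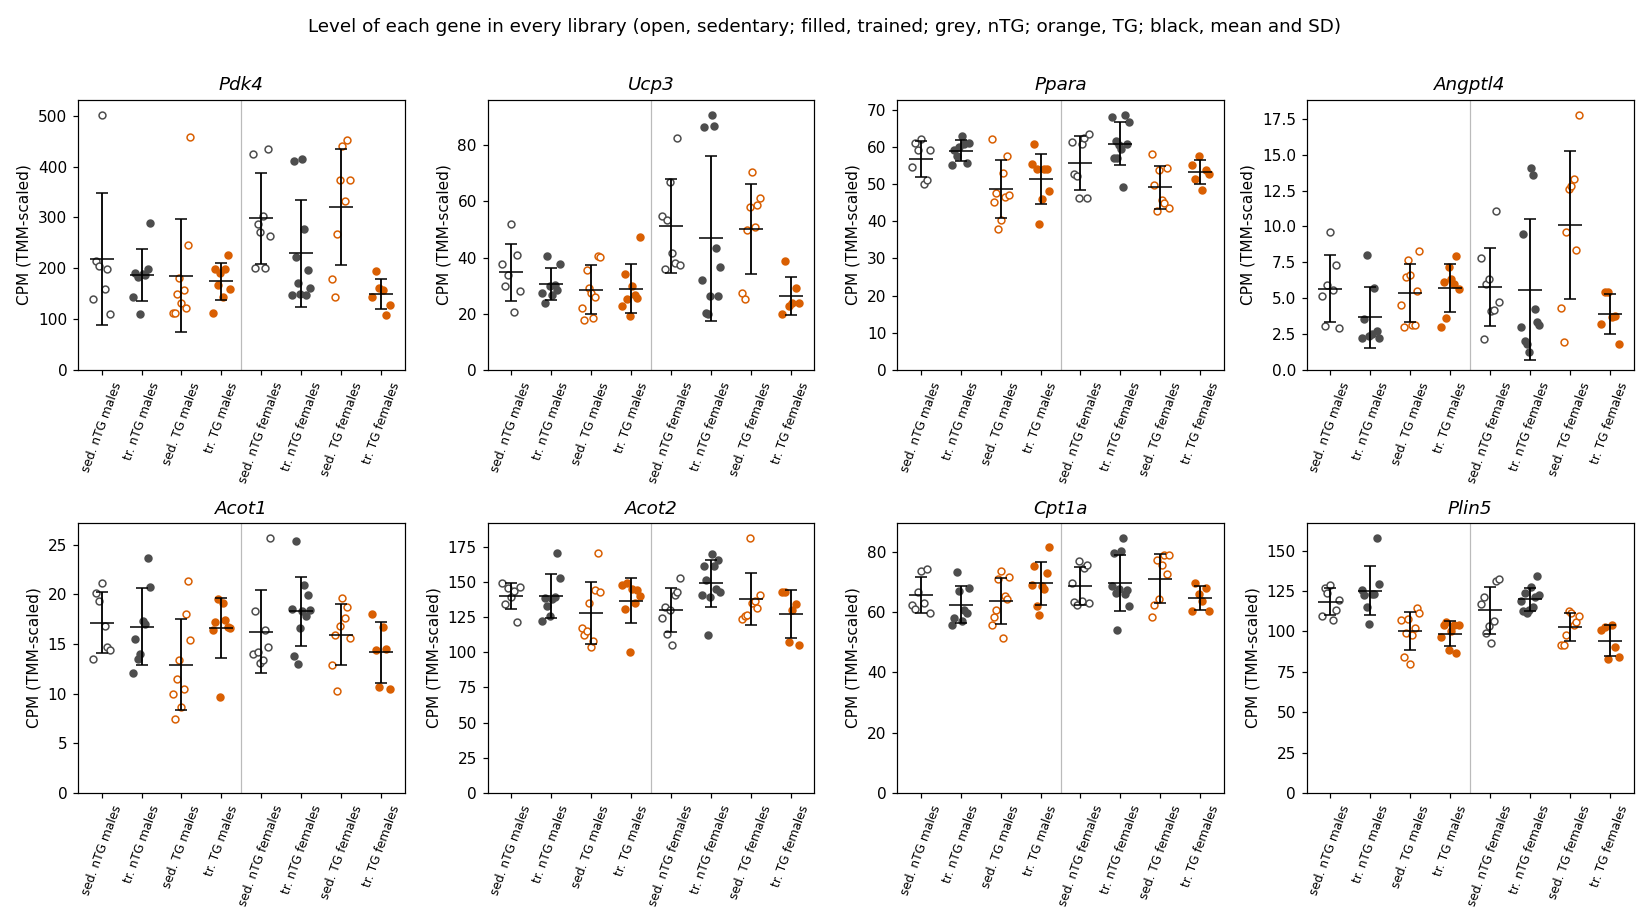
CPM of the 8 genes (TMM-scaled) in each of 64 libraries, by group, with open points for sedentary and filled points for trained mice, grey for nTG and orange for TG; black bars give mean and SD. Plin5 and Ppara lie in narrow bands that are lower in TG, while Pdk4, Ucp3 and Angptl4 scatter widely, with 3 trained nTG females high in Ucp3 at 86.7 to 90.9 CPM.

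The first comparison asks what the transgene changes. Plin5 and Ppara were lower in TG hearts, by 16.8% and 12.9% over the mean of the 4 strata (sedentary and trained males and females), Acot1 and Ucp3 were lower by 13.3% and 19.2% with less margin, and Pdk4, Angptl4, Acot2 and Cpt1a did not pass the threshold. In that mean, 4 of the 8 genes passed at a Benjamini-Hochberg adjusted p under 0.05 in edgeR's quasi-likelihood test, all of them lower, where 39% of all genes passed in either direction and 20.5% were lower. In single strata, 2 of 8 passed in sedentary males (20.6% of all genes passed, 11.2% lower), 2 in trained females (14.8%, 9.43% lower), 1 in trained males (14%, 8.31% lower) and 0 in sedentary females (4.37%, 2.78% lower). For the 0 in sedentary females, 2 genes had an unadjusted p under 0.05, as had 2767 of all 16913 genes, DESeq2 called 0 and limma called 1, Ppara. The counts are to be read against these shares of all genes, and the median log2 fold change of the 8 was −0.20 in the mean of the strata.

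Ppara (chr15:85734983-85802819, plus strand, GRCm38, GENCODE M21), the receptor, was measured at 50.2, 59.3 and 62.3 CPM (lowest, median and highest) in sedentary nTG males and at 37.8, 47.1 and 62.2 CPM in sedentary TG males. In trained males it was 55.1, 59.6 and 63.2 CPM in nTG and 39.2, 54.1 and 60.9 CPM in TG hearts. Medians were lower in TG in both, while the ranges overlapped. In females it was 46.3, 56.8 and 63.5 CPM in sedentary nTG, 42.7, 47.8 and 58.2 CPM in sedentary TG, 49.3, 60.7 and 68.7 CPM in trained nTG and 48.4, 53.4 and 57.8 CPM in trained TG hearts. The log2 fold change was −0.20 ± 0.04 (SE) over the mean of the strata (edgeR adjusted p 3.81e-05), and its values in the 4 strata were close to each other, at −0.23 ± 0.08 (sedentary) and −0.20 ± 0.08 (trained) for males and −0.18 ± 0.08 (sedentary) and −0.20 ± 0.08 (trained) for females. Of these, sedentary males passed (adjusted p 0.0334), and the others had edgeR adjusted p of 0.0823, 0.207 and 0.0957. The call in sedentary males was lost without any of 8 single libraries (sedentary TG males 2, 4, 5 and 9 and sedentary nTG males 2, 3, 4 and 7), with adjusted p up to 0.0961 and log2 fold changes of −0.27 to −0.19 over all 16 such fits. The call in the mean held in 64 of 64 fits that left out 1 library.

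Plin5 (chr17:56111601-56117596, minus strand, GRCm38, GENCODE M21, as for the genes below), a coat protein of lipid droplets that meets mitochondria in oxidative tissue, was the steadiest result among the 8 genes. It lay at 104.8, 123.2 and 157.7 CPM in trained nTG males and at 86.5, 101.9 and 106.0 CPM in trained TG males. In trained females it lay at 111.4, 120.0 and 134.0 CPM in nTG and at 83.0, 95.7 and 104.0 CPM in TG hearts. Every trained TG female was thus below every trained nTG female, and among trained males the ranges met only between 104.8 and 106.0 CPM. In sedentary mice it lay at 106.9, 119.4 and 128.6 CPM in nTG and 80.1, 102.4 and 114.5 CPM in TG males, and at 93.0, 111.8 and 132.3 CPM in nTG and 91.3, 104.7 and 112.9 CPM in TG females, with overlap in both sexes. The log2 fold changes were −0.35 ± 0.07 in trained females (edgeR adjusted p 0.000469), −0.34 ± 0.07 in trained males (0.00033), −0.24 ± 0.07 in sedentary males (0.00962) and −0.13 ± 0.07 in sedentary females (0.33), and −0.27 ± 0.03 in the mean of the strata (6.55e-09). Sedentary females were the stratum without a call, but the tests of genotype by training and of genotype by sex passed for 0 of the 8 genes. No single library removed a Plin5 call in the 3 strata that passed or in the mean.

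Acot1 (chr12:84009490-84018371, plus strand) and Acot2 (chr12:83987861-83993873, plus strand), a cytosolic and a mitochondrial thioesterase that free fatty acids from acyl-CoA, are neighbours on chromosome 12. In Acot1's longest mRNA, 23.9% of stretches of 50 bases also occur in Acot2, so reads could be split between them, and their values are uncertain to that extent. Acot1 was 13.5, 16.8 and 21.1 CPM in sedentary nTG males and 7.46, 11.4 and 21.4 CPM in sedentary TG males, where 6 of 9 TG mice were below every nTG mouse. The log2 fold change there was −0.42 ± 0.16 (edgeR adjusted p 0.0575). It was −0.37 ± 0.17 in trained females (0.131), −0.01 ± 0.16 in trained males (0.978) and −0.03 ± 0.16 in sedentary females (0.964). The mean of the strata passed, at −0.21 ± 0.08 (0.0386), but not without any of 16 single libraries (adjusted p up to 0.0736 without sedentary nTG female 8), and not with the DESeq2 Wald test (0.0507). Acot2 was between 100 and 181 CPM in all libraries and had −0.08 ± 0.04 in the mean of the strata (edgeR adjusted p 0.153).

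Cpt1a (chr19:3322334-3385733, plus strand), which joins long-chain acyl groups to carnitine at the outer mitochondrial membrane and is the form of that enzyme that the adult heart uses less, was the flattest gene. Its group means ran from 62.3 ± 6.18 CPM (SD, n = 8) in trained nTG males to 70.9 ± 8.15 CPM (n = 8) in sedentary TG females. The mean genotype effect was 0.01 ± 0.04 on the log2 scale (edgeR adjusted p 0.836), and the largest of a stratum was 0.16 ± 0.08 in trained males (0.168).

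Ucp3 (chr7:100472990-100486432, plus strand), a mitochondrial carrier protein that is raised when fatty acid supply exceeds oxidation, differed between genotypes in trained females. It was 19.7, 34.1 and 90.9 CPM in trained nTG females and 19.96, 23.7 and 38.9 CPM in trained TG females. The nTG range covers the whole TG range, and 3 nTG females (replicates 2, 6 and 7) stood at 86.7, 90.9 and 86.9 CPM against at most 43.5 CPM in the other 7. The log2 fold change was −0.83 ± 0.26 (edgeR adjusted p 0.0255). It was lost without any of 7 libraries, namely trained nTG females 2, 6 and 7 and trained TG females 1, 3, 4 and 6, with adjusted p up to 0.0771 and log2 fold changes of −0.97 to −0.67 over 16 fits. In the other strata Ucp3 had −0.29 ± 0.25 in sedentary males (0.463), −0.09 ± 0.25 in trained males (0.872) and −0.03 ± 0.25 in sedentary females (0.973), and the mean of the strata was −0.31 ± 0.13 (0.046), a call that 33 of 64 fits without 1 library did not keep.

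Pdk4 (chr6:5483351-5496309, minus strand), the kinase that inactivates pyruvate dehydrogenase and so spares glucose, had a log2 fold change of −0.21 ± 0.13 in the mean of the strata (edgeR adjusted p 0.200). In trained females it was 146.8, 183.1 and 414.2 CPM in nTG and 108.4, 150.4 and 194.3 CPM in TG hearts, a log2 fold change of −0.62 ± 0.27 (0.116). The ranges overlapped, and the same nTG females 2, 6 and 7 had the highest levels, 411.6, 414.2 and 276.8 CPM. Angptl4 (chr17:33773750-33781830, minus strand) had opposite signs in different strata, 0.80 ± 0.37 in sedentary females (edgeR adjusted p 0.246), 0.63 ± 0.38 in trained males (0.284) and −0.51 ± 0.39 in trained females (0.412), with 0.21 ± 0.19 in the mean (0.394). In sedentary females it was 2.16, 5.35 and 11.04 CPM in nTG and 1.93, 11.1 and 17.8 CPM in TG hearts.

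**Figure D2:**
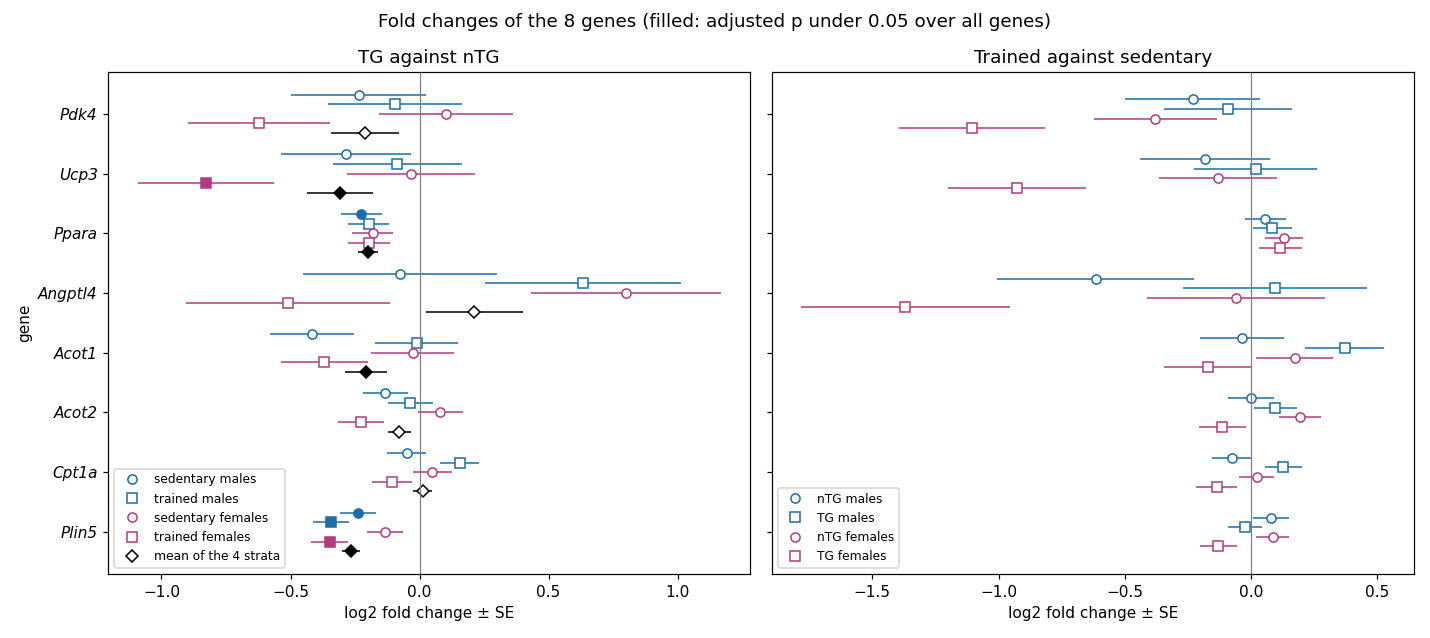
Log2 fold changes with SE (edgeR) for TG against nTG (left) and trained against sedentary (right) in each stratum, with filled symbols for an adjusted p under 0.05 over all 16913 genes. Plin5 and Ppara sit to the left of 0 in all 4 strata on the left, and on the right no symbol is filled.

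The second comparison asks what training changes. It moved 0 of the 8 genes past the threshold in nTG males, TG males, nTG females and TG females, where 0%, 18%, 0.148% and 0% of all genes passed (edgeR), and 0 of 8 in the mean over the sexes of nTG (0.384%) and of TG mice (0.52%). In the 4 strata, 0, 1, 1 and 3 of the 8 had an unadjusted p under 0.05, and in the means 0 (nTG) and 3 (TG). Of all 16913 genes, 999, 5401, 2406 and 606 did so in the strata, and 2154 and 3241 in the means. DESeq2 called 0 in each stratum and mean, and limma called 1, Acot1 in TG males. Acot1 was 9.70, 16.98 and 19.5 CPM in trained TG males against 7.46, 11.4 and 21.4 CPM in sedentary ones, a log2 fold change of 0.37 ± 0.16 (edgeR adjusted p 0.0902).

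The 3 genes with an unadjusted p under 0.05 in TG females were Pdk4, Ucp3 and Angptl4, and their levels were lower after training. Pdk4 was 142.9, 353.0 and 451.9 CPM in the 8 sedentary and 108.4, 150.4 and 194.3 CPM in the 6 trained TG females, and the 2 sedentary mice within the trained range were replicates 1 (178.6 CPM) and 2 (142.9 CPM). Ucp3 was 25.1, 54.5 and 70.4 CPM in sedentary and 19.96, 23.7 and 38.9 CPM in trained TG females, with the same 2 sedentary mice at 27.2 and 25.1 CPM. Angptl4 was 1.93, 11.1 and 17.8 CPM in sedentary and 1.82, 3.72 and 5.44 CPM in trained TG females, again with these 2 mice at 4.29 and 1.93 CPM. Replicate 2 was also the mouse of this group with the most blood marker RNA, 1178 CPM against 317 to 696 CPM. Without it and the sedentary TG male high in blood markers, the log2 fold changes given next became −1.21, −1.03 and −1.53 (edgeR adjusted p 0.236, 0.482 and 0.429). The 6 other sedentary TG females were above every trained one in all 3 genes. The log2 fold changes were −1.10 ± 0.29 for Pdk4 (p 0.000305, edgeR adjusted p 0.478), −0.93 ± 0.27 for Ucp3 (p 0.00129, adjusted p 0.835) and −1.37 ± 0.41 for Angptl4 (p 0.00155, adjusted p 0.835), so the 3 differences fail the correction over all genes. The 6 trained TG females also enter the genotype comparison above, so the 2 comparisons are not independent.

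In TG males the same 3 genes had −0.09 ± 0.25, 0.02 ± 0.24 and 0.09 ± 0.36, and the test of training by sex in TG mice gave −1.01 ± 0.38 for Pdk4 (edgeR adjusted p 0.145), −0.95 ± 0.37 for Ucp3 (0.156) and −1.46 ± 0.55 for Angptl4 (0.144). The test of genotype by training in females gave −0.73 ± 0.38 (0.784), −0.80 ± 0.36 (0.751) and −1.31 ± 0.54 (0.751). All 6 tests of an interaction (genotype by training in each sex, genotype by sex in each training state, training by sex in each genotype) passed for 0 of the 8 genes and for 0% of all genes in edgeR. Without adjustment, p was under 0.05 for 4 of the 8 in the test of training between female genotypes (1093 of all 16913 genes), for 3 in that of genotype between trained sexes (910 genes) and for 5 in that of training between TG sexes (3063 genes). It was so for 0 of the 8 in the other 3 tests, where it was so for 2503, 1471 and 1077 of all genes (training between male genotypes, genotype between sedentary sexes and training between nTG sexes). DESeq2 and limma also called 0 of the 8 in each.

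Of the 8 genes, 1 differed by sex in sedentary TG mice, Ucp3, which was 25.1, 54.5 and 70.4 CPM in females and 17.8, 27.2 and 40.7 CPM in males. Of the 8 females, 6 were above every male, and the log2 fold change was 0.82 ± 0.24 (edgeR adjusted p 0.04), with 3.83% of all genes past the threshold. Pdk4 had 0.79 ± 0.25 (0.0608) and Angptl4 0.91 ± 0.36 (0.143) in the same comparison. In this comparison 6 of 9 blood markers were lower in females, and without the 2 libraries high in blood markers Ucp3 had 0.91 (edgeR adjusted p 0.0332). With limma it did not pass (0.0543). The Ucp3 call was lost in 12 of 17 fits that left out 1 library, with adjusted p up to 0.0975 without sedentary TG male 2. In sedentary nTG, trained nTG and trained TG mice 0 of the 8 genes differed by sex, where 2.22%, 2.4% and 2.29% of all genes did, with 1, 2 and 0 genes of the 8 (2571, 2666 and 3140 of all genes) at an unadjusted p under 0.05 in edgeR and 0 called by DESeq2 or limma. Male libraries carry the lower library numbers and female libraries the higher, so sex and library number cannot be told apart.

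Mice of the same group differed from each other in a partly shared way, to different degrees in different groups. Over the 64 libraries, each centred on its group's mean, 17 of the 28 pairs among the 8 genes were correlated at an adjusted p under 0.05 (permutation within groups, 100000 resamples, adjusted over 28 pairs), 15 of them positively. Pdk4, Ucp3, Angptl4 and Cpt1a formed a block, with Pearson's r from 0.475 to 0.779. Acot1, Acot2 and Plin5 formed another, with r from 0.676 to 0.726. Its highest r was that of Acot1 with Acot2, between which reads could be split, and the part of such reads in that r was not tested. Ppara correlated with none of the other genes positively past the threshold and was negative with Angptl4 (r −0.309, rho −0.321, adjusted p 0.029) and Cpt1a (r −0.339, rho −0.343, adjusted p 0.029).

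The strongest pair was Ucp3 with Angptl4, at r 0.779 and rho 0.729 (permutation p 1e-05 for each, the smallest that the resamples can give, adjusted p 3.5e-05). It was 0.498 within males, 0.888 within females and 0.729 without the 2 libraries farthest from the median of Ucp3. Pdk4 with Angptl4 had r 0.672 and rho 0.662 (permutation p 1e-05, 0.514 in males, 0.813 in females), and 0.682 without the 2 farthest libraries. Ucp3 with Cpt1a had r 0.749 and rho 0.713 (permutation p 1e-05), was positive in 8 of 8 groups, and was 0.735 in males and 0.783 in females. Cpt1a, with no call for genotype or training, thus followed Ucp3 from mouse to mouse. Acot1 with Plin5 had r 0.700 and rho 0.713 (permutation p 1e-05), was also positive in 8 of 8 groups, and was 0.683 without the 2 farthest libraries. Between the blocks, Pdk4 with Plin5 had r 0.403 (rho 0.418, adjusted p 0.0034), while Acot1 with Angptl4 had r 0.0174 (rho 0.0277, adjusted p 0.89). In single groups r ran from 0.612 to 0.873 for Ucp3 with Cpt1a and from 0.578 to 0.887 for Acot1 with Plin5. Other pairs within the blocks varied more, from −0.0195 to 0.97 for Pdk4 with Ucp3 and from −0.0659 to 0.963 for Acot1 with Acot2.

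**Figure D3:**
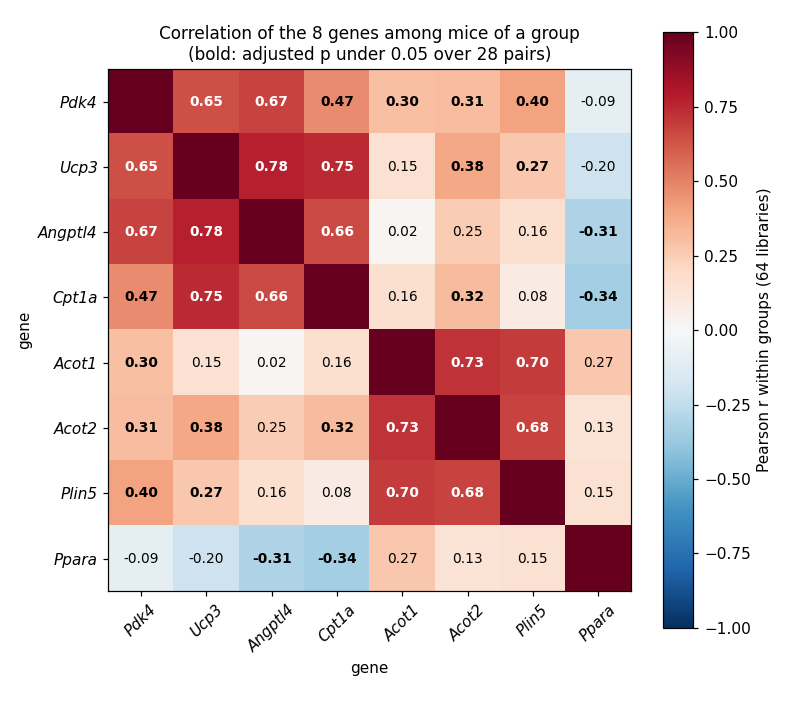
Pearson's r of log2 CPM centred on the group mean over 64 libraries for each pair of the 8 genes, bold where the adjusted p was under 0.05 over 28 pairs. The pairs with the highest r lie in a block of Pdk4, Ucp3, Angptl4 and Cpt1a (0.475 to 0.779) and in a block of Acot1, Acot2 and Plin5 (0.676 to 0.726).

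**Figure D4:**
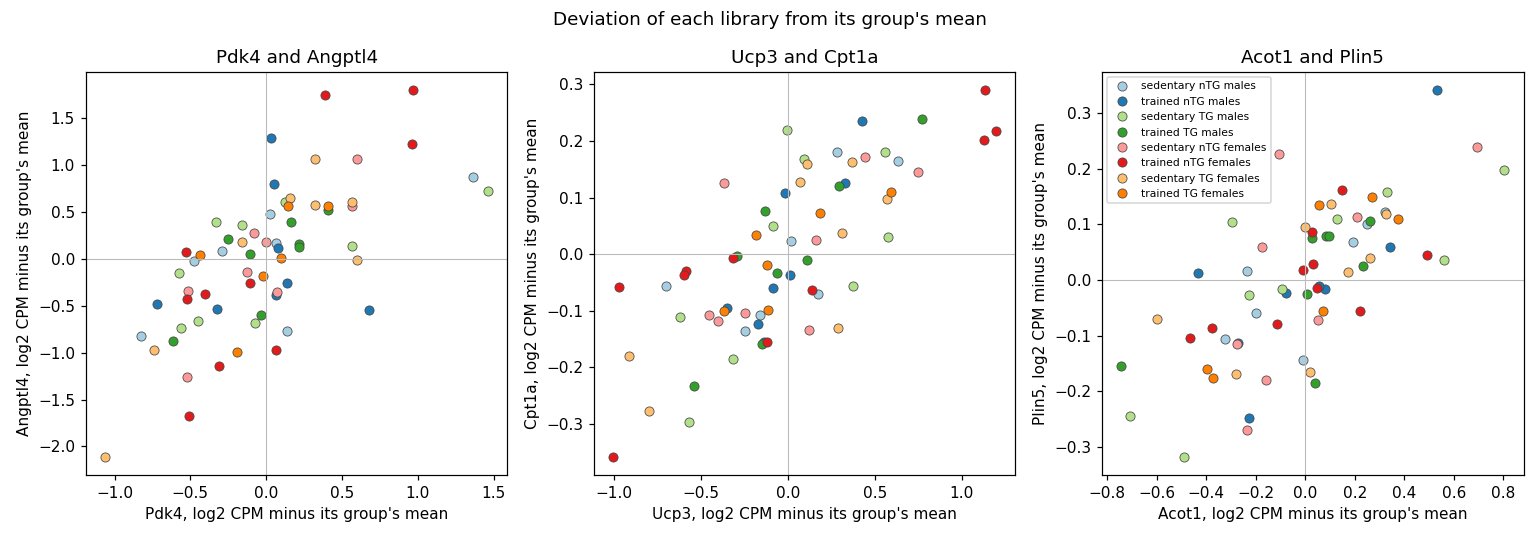
Deviation of each of 64 libraries from its group's mean (log2 CPM) for 3 pairs of genes, coloured by group. The points rise from lower left to upper right in each panel, with r 0.672 for Pdk4 and Angptl4, 0.749 for Ucp3 and Cpt1a, and 0.700 for Acot1 and Plin5.

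Among the genes outside the 8 whose levels followed their mean most closely within groups were Mmd (r 0.727), Slc25a22, a mitochondrial glutamate carrier (0.727), Fbp2, the muscle fructose bisphosphatase (0.725), and Gpam, which starts triglyceride synthesis (0.723). For Pdk4 alone they were Mmd (0.710) and Gpam (0.657), with Angptl4 of the 8 between them (0.672). These r are over 64 libraries and were ranked among 13397 genes, so they describe likeness and carry no test.

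The wider pathway was read from lists of textbook genes in the same mean of the 4 strata, in which 39% of all genes passed. Of 40 other PPAR-alpha targets of lipid use that were measured, 30 were lower and 1 was higher in TG hearts, with a median log2 fold change of −0.18, where the median of all genes was 0.0067. The targets with the smallest p were Fitm2 and Fitm1, which help form lipid droplets, at −0.39 ± 0.03 and −0.45 ± 0.04, and Acadm, the medium-chain acyl-CoA dehydrogenase of fat oxidation, at −0.32 ± 0.03. Acadm was 863 ± 88.3 CPM (SD, n = 33) in nTG and 695 ± 92.2 CPM (n = 31) in TG hearts. In single strata 27 of the 40 were lower in sedentary males, 25 in trained females, 11 in trained males and 6 in sedentary females, where 11.2%, 9.43%, 8.31% and 2.78% of all genes were lower. In TG males, where training moved 18% of all genes (10.3% higher and 7.6% lower), 15 of the 40 were higher after training and 0 were lower. In that comparison 5 of 9 macrophage, 6 of 9 blood, 3 of 10 endothelial and 2 of 9 fibroblast markers were lower and 2 of 11 cardiomyocyte markers were higher, and their part in the result was not tested.

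Of the 13 genes around pyruvate dehydrogenase, the complex that Pdk4 controls, 12 were lower and 0 higher in TG hearts. They included Pdp2, the phosphatase that reverses what Pdk4 does (−0.52 ± 0.05), and the subunits Dlat (−0.21 ± 0.02) and Pdhx (−0.19 ± 0.02). Pdp2 was 72.6 ± 10.2 CPM (SD, n = 33) in nTG and 50.5 ± 7.25 CPM (n = 31) in TG hearts. Of 9 genes that set malonyl-CoA, the inhibitor of the Cpt1 enzymes, 5 were lower and 1 higher. Acacb, which makes malonyl-CoA at the mitochondrion, had −0.21 ± 0.03, and the AMP kinase subunits Prkab1 and Prkag1 had −0.29 ± 0.04 and −0.19 ± 0.02.

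Of 18 genes of glucose uptake and glycolysis, 12 were lower and 3 higher. Pfkfb1, a regulator of phosphofructokinase, had −1.41 ± 0.09 and stood at 7.28 ± 1.5 CPM (SD, n = 33) in nTG and 2.76 ± 0.977 CPM (n = 31) in TG hearts. Among the phosphofructokinase subunits Pfkm was lower (−0.23 ± 0.02) and Pfkp higher (0.52 ± 0.05). Of 18 receptors and cofactors that work with PPAR-alpha, 7 were lower and 1 higher, among them the estrogen-related receptors Esrrb (−0.25 ± 0.03) and Esrra (−0.14 ± 0.03), which drive mitochondrial genes, and the corepressor Ncor1 (−0.11 ± 0.01).

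In the lists of other known inputs to these genes, no larger share was called than the 39% of all genes. Of 11 FOXO-related genes 3 were lower and 0 higher, the ubiquitin ligase gene Trim63 (−0.18 ± 0.03), Foxo4 (−0.12 ± 0.03) and Klf15 (−0.17 ± 0.06). Of 10 glucocorticoid-induced genes 1 was lower, Mt1 (−0.19 ± 0.05), and of 17 clock genes 3 were lower and 1 higher, with Arntl at −0.47 ± 0.16 and Cry1 at −0.16 ± 0.06. The medians of the glucocorticoid and clock lists were above 0, at 0.05 and 0.14. The edgeR adjusted p of the genes named from these lists ranged from 4.88e-19 to 0.022.

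**Figure D5:**
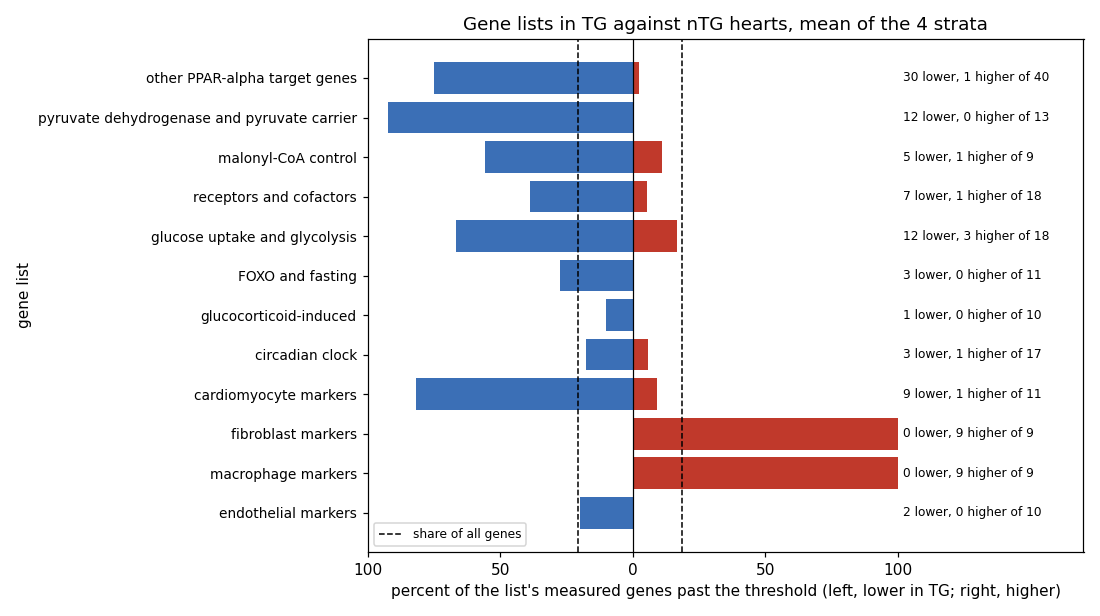
Percent of each list's measured genes that were lower (left) or higher (right) in TG hearts at an adjusted p under 0.05 in the mean of the 4 strata, with dashed lines at the share of all genes. Genes of the PPAR-alpha target list (30 of 40) and of the pyruvate dehydrogenase list (12 of 13) were mostly lower, and markers of fibroblasts and macrophages (9 of 9 each) were all higher.

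Markers of other heart cells moved with genotype too. In the mean of the strata 9 of 9 fibroblast and 9 of 9 macrophage markers were higher in TG hearts, with median log2 fold changes of 0.40 and 0.41, and 9 of 11 cardiomyocyte markers were lower and 1 higher, with a median of −0.16. Of the blood markers 4 of 9 were lower and 0 higher (median −0.34), with 5 of 9 lower in trained males (median −1.19). The strata differed, as 2 of 9 were higher and 0 lower in sedentary males (median 0.58). In trained females 1 was lower (median −0.60), and in sedentary females 0 were called (median −0.21). Of the adipocyte markers 3 of 8 were lower and 0 higher, although the median was 0.16. Here too the strata differed, with 2 higher and 1 lower in sedentary males (median 0.48) and 3 lower in trained males (median 0.25). For females, 2 were lower in trained mice (median −0.37) and 0 were called in sedentary mice (median −0.03). In single strata, 9 of 9 macrophage and 8 of 9 fibroblast markers were higher in sedentary males, and 6 and 5 in trained males. In trained females 8 and 5 were higher, and in sedentary females 0 and 1, with a macrophage median of 0.13. The summed macrophage markers ran from 203 to 393 CPM in nTG and from 269 to 479 CPM in TG libraries. By group, the ranges were 211 to 287 CPM in sedentary nTG males, 271 to 479 CPM in sedentary TG males, 203 to 274 CPM in trained nTG males, 270 to 477 CPM in trained TG males, 259 to 393 CPM in sedentary nTG females, 269 to 403 CPM in sedentary TG females, 232 to 322 CPM in trained nTG females and 303 to 447 CPM in trained TG females. The summed fibroblast markers ran from 691 to 1600 CPM in nTG and from 847 to 1940 CPM in TG libraries. Medians of the cardiomyocyte sum in nTG and TG hearts were 137000 and 128000 CPM in sedentary males and 140000 and 139000 CPM in trained males. In females they were 133000 and 134000 CPM (sedentary) and 138000 and 137000 CPM (trained), and the ranges overlapped in each stratum. In these bulk samples, fewer cardiomyocytes and less RNA of a gene per cardiomyocyte cannot be told apart.

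Within groups the summed macrophage markers were lower where Acot1 was higher (r −0.697, rho −0.681, permutation p 1e-05, adjusted p 0.00032 over 64 relations), and likewise for Acot2 (r −0.595, rho −0.570, adjusted p 0.00064) and Plin5 (r −0.463, rho −0.491, adjusted p 0.0045). Without the 2 libraries farthest from the median of the macrophage sum these were −0.616, −0.478 and −0.411. The fibroblast sum gave −0.645, −0.546 and −0.362 for the same genes (rho −0.609, −0.513 and −0.375, adjusted p 0.00032, 0.0016 and 0.026), and −0.419 for Ppara (rho −0.348, adjusted p 0.018), which was −0.254 without the 2 libraries farthest from the median of the fibroblast sum. The cardiomyocyte sum was higher where Acot1 (r 0.449, rho 0.423, adjusted p 0.0055), Acot2 (r 0.379, rho 0.339, adjusted p 0.021) and Ppara (r 0.373, rho 0.290, adjusted p 0.033) were higher. Without the 2 libraries farthest from the median of the cardiomyocyte sum these were 0.380, 0.347 and 0.276, and the rho of Ppara had an adjusted p of 0.093. For Pdk4, Ucp3, Angptl4 and Cpt1a the macrophage and fibroblast sums gave r between −0.281 and 0.214, with adjusted p from 0.071 to 1. The part of these cells in the genotype differences of Plin5, Ppara and Acot1 was not tested. Since reads could be split between Acot1 and Acot2, the relations of these 2 genes are not independent.

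Of 12 adipocyte markers 8 were in the table, which has no row for Adipoq, Lep, Retn or Ucp1, and their sum ran from 110 to 209 CPM over all groups. It was higher where Cpt1a (r 0.510, rho 0.545, adjusted p 0.0013) and Angptl4 (r 0.384, rho 0.456, adjusted p 0.014) were higher and lower where Ppara (r −0.526, rho −0.516, adjusted p 0.0013) and Plin5 (r −0.397, rho −0.307, adjusted p 0.016) were higher. Without the 2 libraries farthest from the median of the adipocyte sum, r was 0.558 for Cpt1a, 0.418 for Angptl4, −0.502 for Ppara and −0.257 for Plin5, whose rho over all libraries had an adjusted p of 0.063. The part of adipose tissue in these levels was not tested. Blood markers stood apart in sedentary TG male 5 (4630 CPM against 293 to 1153 CPM in that group) and sedentary TG female 2 (1178 CPM against 317 to 696 CPM). Without these 2 libraries Plin5 and Ppara stayed past the threshold in the mean of the strata, and Acot1 and Ucp3 did not (edgeR adjusted p 0.0677 and 0.0795), while their log2 fold changes were −0.18 and −0.28, near the −0.21 and −0.31 of all libraries.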

How the data were processed

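Total RNA of hearts was depleted of ribosomal RNA and sequenced, per the labels' protocols. The deposited gene table holds counts, which are whole numbers per gene, and the deposited lncRNA table holds expected counts, of which 45 of 3787 rows have fractions. The authors' processing used cutadapt 2.3, STAR 2.7.8a and RSEM 1.3.3 with GRCm38, per the submitters' processing notes, while annotation and strand setting are not given in the sources used here. The gene column of each library was found by correlation with the lncRNA table (log2 CPM plus 0.5, mean count of at least 20), and a minimum of 50 gave the same 64 pairs. Symbols were found for 16879 of 16913 IDs (GENCODE M21).

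Counts were tested with edgeR 4.0.16 (TMM, filterByExpr, which kept all 16913 genes, quasi-likelihood F test, 8 group means in 1 model) in R 4.3.3, with Benjamini-Hochberg adjustment over all genes at 0.05. Standard errors are the log2 fold change divided by the square root of F. Alternatives were limma 3.58.1, DESeq2 1.42.0, other scalings and filters, the replicate number as a block, columns taken by name and leaving out each library. Outside the 8 genes, the text names in each pathway list up to 3 genes past the threshold with the smallest p in the mean genotype comparison and a mean of at least 50 counts, and the 5 genes most like the mean of the 8 and the 3 most like Pdk4. Some genes that this rule picks are not reported here. The 8 genes, the lists and the tests were chosen with earlier results of these data known, so they are no independent evidence. Tested on simulated counts for sedentary males with 200 of 16913 genes changed, the fit recovered 33% at a log2 change of 0.25, 62.5% at 0.5 and 85.5% at 1. False calls were 4, 6 and 9. In the real comparison 3488 genes passed, so the adjustment acts differently there, and these rates do not give the power of the reported test. The labels call the samples biological replicates. Precision at low counts is set by the depth, and Angptl4 had the fewest counts.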

Additional observations from a re-analysis of the deposited data

Results flagged for a closer look

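In 7 of 64 sets of values (8 genes in 8 groups) a single mouse stood far from the rest of its group by Dixon's gap ratio, where chance gives about 1 in 20, or 3.2 of 64. Pdk4 was 501.9 CPM in sedentary nTG male 4 against 110 to 213.9 CPM in the others, and 458 CPM in sedentary TG male 9 against 111.5 to 246.0 CPM. Trained TG male 4 was low in both thioesterases, at 9.70 CPM against 16.4 to 19.5 CPM for Acot1 and at 100.4 CPM against 130.4 to 149.4 CPM for Acot2. Acot1 was 25.6 CPM in sedentary nTG female 8 against 13.1 to 18.3 CPM. Acot2 was 181 CPM in sedentary TG female 4 against 123.7 to 140.6 CPM. Plin5 was 157.7 CPM in trained nTG male 7 against 104.8 to 129.7 CPM.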

How the results depend on the processing

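With the gene columns taken by name, 0 of the 8 genes passed in sedentary males, trained males, trained females and the mean genotype comparison and in the sex comparison of sedentary TG mice, and 2 passed for training in the mean of nTG mice. Signs then turned for TG against nTG in sedentary males (Ucp3 0.20, Plin5 0.011), trained males (Ppara 0.064, Angptl4 −0.28, Acot1 0.0035, Plin5 0.059), sedentary females (Angptl4 −0.028) and trained females (Pdk4 0.0097, Ppara 0.025), for training in TG males (Ucp3 −0.11, Angptl4 −0.30, Acot1 −0.083) and nTG females (Acot2 −0.090), for genotype by training in females (Pdk4 0.20, Ucp3 0.081) and for training by sex in TG mice (Pdk4 0.21, Ucp3 0.013). These columns are the ones that go against the labelled sex or genotype.

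Of the other settings, no filter on low counts repeated the main fit, since the filter had kept all 16913 genes, and so tests nothing. DESeq2 size factors kept each count of the 8 genes within 1.5 times. The mean genotype comparison gave 2 genes with a mean of at least 100 counts, with the DESeq2 Wald test and without the 2 libraries high in blood markers, an alternative chosen after seeing the data. Sedentary males gave 1 gene without those libraries and 1 when fitted alone. With limma, sedentary females gave 1 gene, training in TG males 1 and the sex comparison in sedentary TG mice 0, which gave 2 with a mean of at least 100 counts. Replicate numbers did not pair the mice, since the median correlation was 0.0103 for shared and −0.000472 for other numbers and 7 of 64 libraries correlated best with their own number. With the replicate number as a block, trained females gave 1 gene and training in TG males 1. Signs of small changes also turned: Acot1 in trained males was 0.0041 with a mean of at least 100 counts, 0.012 with the replicate block and 0.083 with limma, Ucp3 in sedentary females 0.069 without the blood-rich libraries and 0.0051 with limma, Pdk4 for training in TG males 0.10 with the block, and Angptl4 by sex in sedentary nTG mice −0.076 with limma. For all of these the cause was not tested.

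Leaving out 1 library at a time gave 1 to 3 of the 8 genes in sedentary males, 1 to 2 in trained males, 0 in sedentary females, 1 to 3 in trained females, 2 to 4 in the mean, 0 to 1 for training in TG males, 0 to 2 by sex in sedentary TG mice and 0 in every other comparison. Plin5 ranged from −0.28 to −0.25 and Ppara from −0.21 to −0.18 in the mean over 64 fits. Among the counts of list genes that were above 0, the alternatives other than names and no filter moved between 5 and 17 by over 1.5 times. The 30 lower PPAR-alpha targets and the 12 lower pyruvate dehydrogenase genes of the mean were not among the counts moved. Depth limits Angptl4 most, with as few as 63 counts in a library.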

Other observations

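Dbp and Arntl, clock genes that peak at opposite times of day and were picked from the clock list after their values were seen, followed Cpt1a and Plin5 in opposite directions within groups. The adjustment over 64 relations does not cover that choice, so the p-values below only describe. Dbp had r 0.432 with Cpt1a (rho 0.396, permutation, adjusted p 0.006 over 64 relations) and −0.341 with Plin5 (rho −0.391, adjusted p 0.038). Arntl had r −0.429 with Cpt1a (rho −0.370, permutation, adjusted p 0.0075) and 0.418 with Plin5 (rho 0.420, adjusted p 0.0093). Without the 2 libraries farthest from the median of the clock gene, these were 0.354, −0.347, −0.444 and 0.376. For Pdk4, Ucp3 and Angptl4 the adjusted p with either clock gene was 0.14 to 0.50. The labels used here do not give the time of day at which hearts were taken.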
